A study of Mus musculus with 3 samples.

Results

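The enzymes of thymidylate synthesis and deoxynucleoside salvage considered here are the products of 9 genes, Tyms, Dut, Dctd, Dtymk, Tk1, Dck, Tk2, Dguok and Samhd1. They were taken by symbol from a listed set, with no cut-off on a measured value but with earlier results of these data known. By CBTi-seq 20716 symbols were measured, and 55295 gene names by a method that reads the 3' ends of transcripts. All 9 had a row in each table. The cells were L929, an established mouse fibroblast line, either control cells or cells with a knockdown of Rrm2, a small subunit of ribonucleotide reductase. How and for how long the knockdown was applied is not given in these sources. CBTi-seq, in which single cells were drawn into a capillary and their RNA copied from an oligo dT primer, gave 1 sample with 10 columns named control and 10 named knock. The 3' method gave 1 library labelled control and 1 labelled knock, each with 8 columns.

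A cell needs thymidine triphosphate to copy DNA, and it makes the monophosphate along separate routes. In the de novo route, deoxyuridine monophosphate is formed by deaminating deoxycytidine monophosphate or by hydrolysing deoxyuridine triphosphate, and thymidylate synthase then methylates it with a folate cofactor. In salvage, kinases of the cytosol and of mitochondria phosphorylate deoxynucleosides taken up from outside or released from DNA. The cytosolic enzymes of thymidylate synthesis are known as S phase genes, while the mitochondrial kinases serve the mitochondrial genome in resting cells as well, and SAMHD1 breaks deoxynucleotides down again.

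Levels are given as CPM, a gene's counts relative to the sum over every gene of a column or of summed columns, so they are shares, and a change in the RNA of a whole cell does not appear in them. Ratios are knock over control and are given as log2, with exact 95% intervals that cover counting error only. Each group is at most 1 sample and its columns are not replicates, so no difference was tested. Column totals ran from 41570 to 846819 counts in CBTi-seq and from 399393 to 2496457 in the 3' tables. The shallowest of all, CBTi-seq control column 1, holds the lowest value of several genes below. Rrm2 itself was at 480.9 CPM in the CBTi-seq control columns and 350.1 CPM in the knock columns (log2 ratio -0.46, -0.56 to -0.35). The 3' levels of Rrm2 went against the label, at 39.1 CPM under control and 148.1 CPM under knock (log2 ratio 1.92, 1.74 to 2.12), so 3' directions are given by label alone. Of 10 fibroblast markers, 9 had counts in CBTi-seq (all but Thy1) and 10 in the 3' libraries, though Col3a1 had none under the control label. Their 3' sum was 6064 CPM under the control label and 9339 CPM under the knock label. Most of it came from Lgals1, at 5243 and 7650 CPM, followed by Vim, at 644 and 1169 CPM. The 4 endothelial markers had no CBTi-seq count and summed to 19.1 and 21.1 CPM under the 3' control and knock labels. The macrophage markers, of which Ptprc had no count in either assay, summed to 63.4 CPM in CBTi-seq control and 35.9 CPM in knock columns (columns 21.0 to 181.0 and 10.6 to 52.3, 4 of 7 with counts). Their 3' sums were 91.8 CPM under control (columns 65.5 to 120.2) and 169.7 CPM under knock (columns 136.4 to 189.6), which did not overlap, with 6 of 7 detected and 77.8 and 150.0 CPM from Cd68. The epithelial markers summed to 2.85 and 0.855 CPM in CBTi-seq control and knock columns, but to 194.8 CPM under the 3' control label and 122.7 CPM under the knock label, with 188 and 110.5 CPM from Cdh1. Whether these markers bear on the values below was not tested.

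In CBTi-seq, the RNAs of Tyms, Dut, Dtymk and Tk1, which make or phosphorylate thymidylate or its precursor, were higher in the knock columns, each by a similar ratio between 0.43 and 0.56. That of the mitochondrial kinase gene Dguok was lower, by -0.64. For Tk2, at -0.46, and for Dck, Dctd and Samhd1, between -0.09 and 0.16, the counting interval included 0. The 4 genes on the higher side are also the 4 members whose mean over the groups reached 50 CPM. Of these 4, all had a ratio above 0, against 49.1% of the 5243 genes at that level. None was 2-fold apart, against 1.01% of those genes, and none had columns without overlap between the groups, against 0.191%. Over all 9 members the median log2 ratio was 0.16, with 6 above 0 and 3 below. The median of all genes at 50 CPM or more was -0.01.

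Among the 3' values, Tyms and Dtymk were more than 2-fold higher under the knock label and Dut less so. Dctd, Samhd1 and Dck were lower, and Tk1 was listed at 0 in every column. Of the 3 members at 50 CPM or more, all had a ratio above 0, against 57.7% of 2826 genes at that level. Of the same 3, Tyms and Dtymk were at least 2-fold apart, against 17.9% of the genes, and their columns did not overlap between the libraries, against 36.3% of the genes. Over the 8 members with counts the median was 0.17, with 4 above 0 and 4 below. The median of all genes at 50 CPM or more was 0.14.

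**Figure D1:**
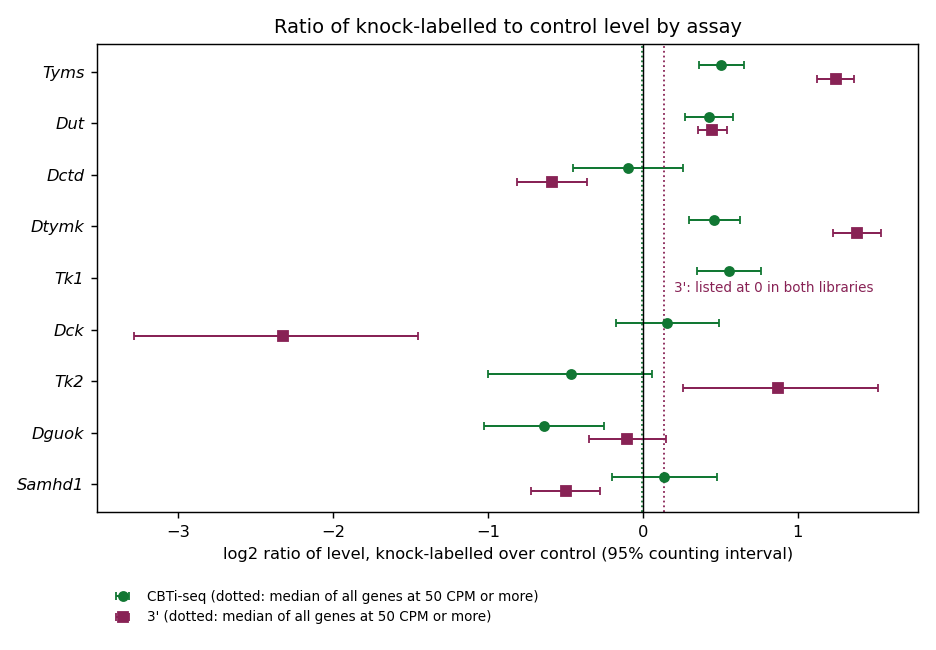
Log2 ratio of the knock-labelled to the control level of each gene (x axis) in CBTi-seq (circles) and the 3' libraries (squares), with 95% counting intervals. Tyms, Dut and Dtymk lie to the right of 0 in both assays, and Dck is at 0.16 in CBTi-seq and -2.32 in the 3' libraries.

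Tyms encodes thymidylate synthase, which turns deoxyuridine monophosphate into thymidine monophosphate. The gene (ENSMUSG00000025747) spans bases 30058202 to 30073617 of chromosome 5 (minus strand, GRCm38) and overlaps no annotated gene. Its CBTi-seq control columns ran from 96.2 CPM over a median of 182.2 to 246.4 CPM, and its knock columns from 168.2 over 252.5 to 359.4 CPM. The groups overlapped, yet 6 of the 10 knock columns stood above the highest control column and 9 above the control median. Summed, 674 control counts gave 174.5 CPM (161.6 to 188.2) and 870 knock counts 248.1 CPM (231.9 to 265.1), a log2 ratio of 0.51 (0.36 to 0.65). By the 3' method the columns ran from 95.98 over 105.0 to 145.0 CPM under the control label and from 218.5 over 252.6 to 280.5 CPM under the knock label. All 8 columns labelled knock were above all 8 labelled control, with a summed log2 ratio of 1.25 (1.13 to 1.37). Of the stretches of 50 bases in its longest transcript, 8.79% also occur in transcripts of other genes, among them the pseudogene Tyms-ps, and how the counting shared such reads is not given.

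Dut encodes the dUTPase, which hydrolyses deoxyuridine triphosphate to the monophosphate that thymidylate synthase uses and keeps uracil out of DNA. Its position is chromosome 2, 125247190 to 125258608, plus strand (ENSMUSG00000027203). In CBTi-seq its control columns ran from 24.1 over 157.5 to 265.2 CPM and its knock columns from 169.9 over 210.0 to 272.3 CPM. The lowest control value is 1 count in column 1, and without that column the lowest was 101.0 CPM. All 10 knock columns stood above the control median, and 1 stood above the highest control column. The summed levels were 164.7 and 221.5 CPM, a log2 ratio of 0.43 (0.27 to 0.58). The 3' ratio was 0.45 (0.36 to 0.54), from 205.6 and 280.6 CPM, and 0.29 with median-of-ratios scaling, which shifts all genes down. There the columns labelled control ran from 178.6 over 196.7 to 292.4 CPM and those labelled knock from 255.9 over 278.7 to 315.2 CPM, which overlapped through 1 column labelled control.

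Dctd encodes dCMP deaminase, the other source of deoxyuridine monophosphate (ENSMUSG00000031562, chromosome 8, 48099092 to 48153233, plus strand). Its CBTi-seq control columns ran from 16.8 over 24.3 to 59.0 CPM and its knock columns from 0 over 28.4 to 69.3 CPM. The groups overlapped widely, and the summed levels of 38.1 and 35.6 CPM gave a log2 ratio of -0.09 (-0.45 to 0.26). The highest column of each group was also its deepest, and across the 20 columns Spearman's rho of Dctd with the column total was 0.73 (0.65 within control and 0.88 within knock columns), a description of columns of 1 sample. Without control column 9, the deepest, the ratio was 0.15, and without knock column 10 it was -0.51. By label, the 3' level of Dctd was 49.4 CPM for control (columns 17.1 to 69.9) and 32.9 CPM for knock (columns 25.1 to 42.8). Its 8 columns labelled knock lay within the range of those labelled control, and the log2 ratio was -0.59 (-0.82 to -0.36). It was -0.32 without control column 2, the deepest, and -0.24 after thinning every column to 50000 counts.

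Dtymk encodes thymidylate kinase, which carries thymidine monophosphate from both routes on to the diphosphate (ENSMUSG00000026281, chromosome 1, 93792576 to 93801934, minus strand). In CBTi-seq its control columns ran from 36.2 over 127.8 to 208.9 CPM and its knock columns from 156.1 over 187.8 to 254.8 CPM. All 10 knock columns were above the control median and 3 above the highest control column. The summed levels were 138.0 CPM (126.5 to 150.2) and 190.2 CPM (176.0 to 205.2), a log2 ratio of 0.46 (0.30 to 0.63). The 3' columns ran from 41.6 over 61.9 to 78.8 CPM under the control label and from 140.5 over 160.5 to 183.4 CPM under the knock label. These ranges were far apart, and the log2 ratio was 1.38 (1.23 to 1.54).

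**Figure D2:**
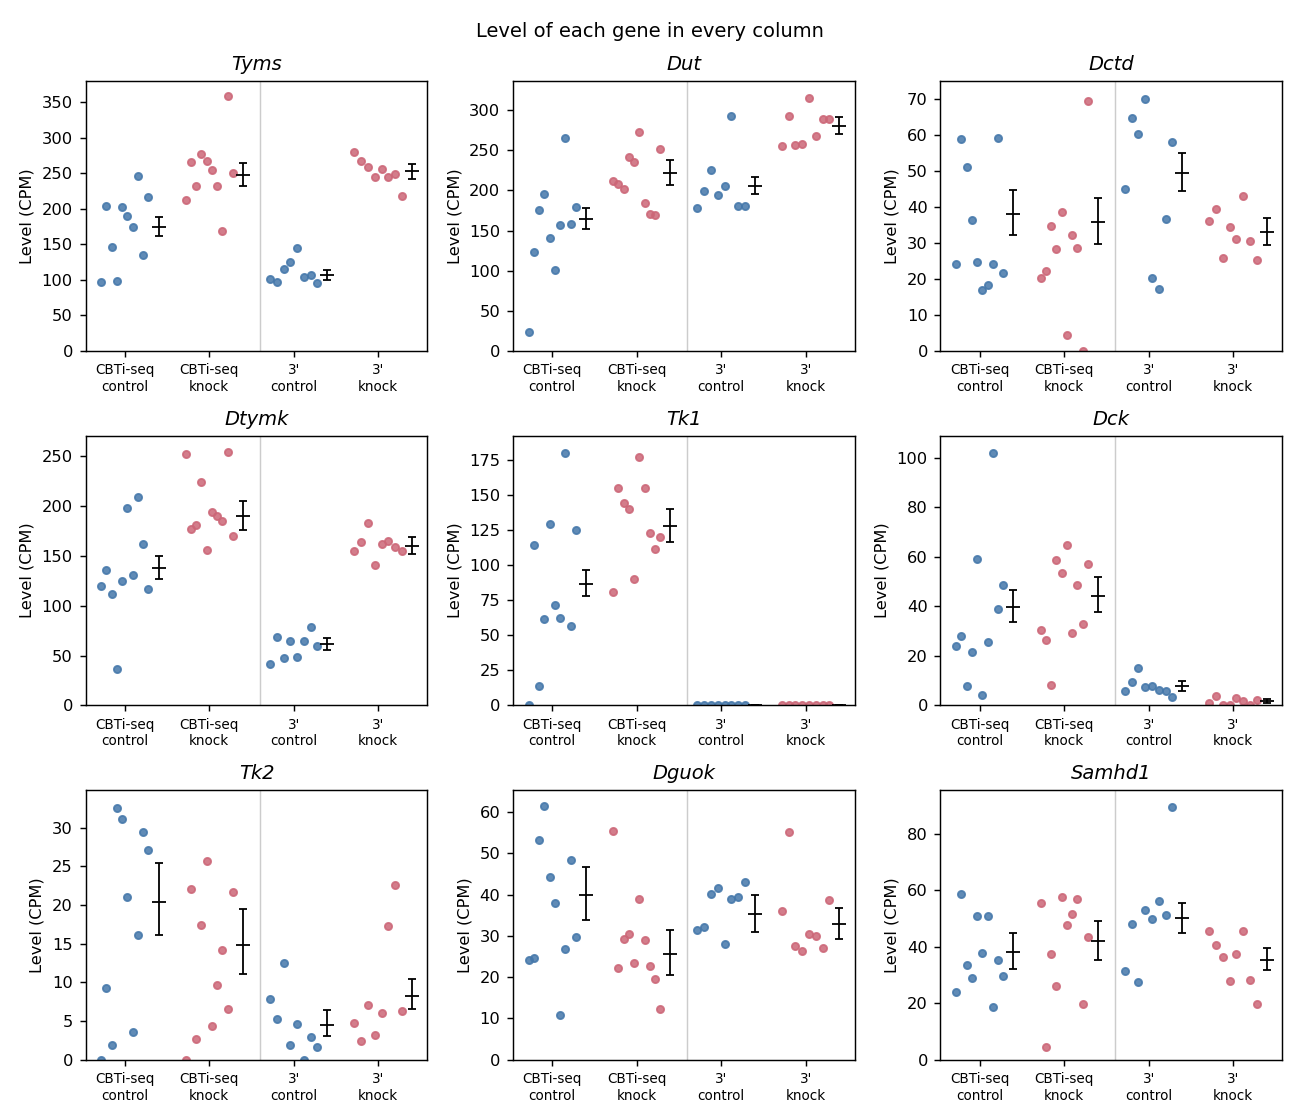
Level of each of the 9 genes in CPM (y axis, from 0) in every column, as dots, for control (blue) and knock (red) columns of CBTi-seq (10 each) and of the 3' libraries (8 each). Black marks are the summed level with its 95% counting interval. Tyms and Dtymk separate in the 3' libraries and overlap in CBTi-seq, and Tk1 is at 0 in every 3' column.

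Because Tyms, Dtymk and Tk1 stood on the same side by similar ratios in CBTi-seq, the 250 bases before their RefSeq starts (GRCm38.p6) are shown, written in the direction of each gene. For Tk1 the last 78 of them lie inside the GENCODE gene, which starts farther upstream, and for Tyms and Dtymk none does. Capitals mark a GC box (GGGCGG) or a CCAAT box, on either strand.

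Tyms, chr5:30073626-30073875, minus strand: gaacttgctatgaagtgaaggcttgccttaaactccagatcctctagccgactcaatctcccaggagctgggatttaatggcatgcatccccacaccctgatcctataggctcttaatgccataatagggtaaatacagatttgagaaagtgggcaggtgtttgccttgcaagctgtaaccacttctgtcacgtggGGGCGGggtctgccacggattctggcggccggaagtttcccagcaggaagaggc

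Tk1, chr11:117826015-117826264, minus strand: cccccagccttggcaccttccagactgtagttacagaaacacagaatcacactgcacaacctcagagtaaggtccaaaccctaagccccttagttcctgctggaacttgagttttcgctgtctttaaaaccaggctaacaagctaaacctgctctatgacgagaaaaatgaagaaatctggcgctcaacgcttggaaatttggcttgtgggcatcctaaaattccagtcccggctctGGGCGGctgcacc

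Dtymk, chr1:93801935-93802184, minus strand: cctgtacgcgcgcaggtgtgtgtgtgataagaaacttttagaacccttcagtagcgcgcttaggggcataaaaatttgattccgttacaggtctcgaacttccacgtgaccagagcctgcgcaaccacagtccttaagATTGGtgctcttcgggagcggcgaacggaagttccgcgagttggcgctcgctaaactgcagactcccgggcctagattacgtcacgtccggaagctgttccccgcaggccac

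Tyms and Tk1 each hold 1 GC box, 54 and 13 bases before the start, and Dtymk holds none but has 1 CCAAT box on the opposite strand, 112 bases before the start. Over windows of 300 bases, from 250 before to 50 after the start, GC boxes occur in 35.7% and CCAAT boxes in 37.4% of all 32851 promoters in the table. The E2F-like words TTTGGCGC, TTTCGCGC, TTTCCCGC and TTTGCCGC, searched on both strands, occur in 2.26% of those promoters and in none of the windows of the 9 genes. No match says only that these letters are not in these windows. GC boxes were not limited to the genes on the higher side. The window of Dck holds 6, that of Tk2 holds 2, and those of Dut, Samhd1 and 2 of the 3 RefSeq starts of Dctd hold 1 each. All 250 upstream bases of Dut lie inside its GENCODE gene, so they are not printed. The words TTTGAA and TTCGAA, found in cell cycle promoters, occur in 19.2% of all promoters and, among the 9 genes, in those of Tk2 and Dck.

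Tk1 encodes the cytosolic thymidine kinase of dividing cells, the entry of salvaged thymidine. In CBTi-seq its control columns ran from 0 over 66.8 to 179.5 CPM and its knock columns from 80.7 over 131.1 to 177.2 CPM. The control column at 0 is the shallowest, where 3 counts make 72.2 CPM, and the next lowest was at 13.8 CPM. No knock column stood above the highest control column, yet all 10 stood above the control median, and the lowest columns were control columns. The summed levels were 86.7 CPM (77.7 to 96.5) and 127.7 CPM (116.2 to 140.1), a log2 ratio of 0.56 (0.35 to 0.77). It was the highest ratio of the 9 genes in CBTi-seq.

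The 3' tables listed Tk1 at 0 in all 16 columns, where 3 counts over a library make 0.424 CPM under the control label and 0.327 CPM under the knock label. Set against 3 counts over both 3' libraries (0.185 CPM), the CBTi-seq level of 106.3 CPM over all columns was 575-fold higher, a value that depends on that floor. With the 0 counts themselves, the lower 95% limit of the log2 ratio between assays was 8.87. The gene (ENSMUSG00000025574, chromosome 11, 117815526 to 117826092, minus strand) lies inside the span of Gm20708, a gene on the plus strand from 117809668 to 117839904, and touches Afmid on that strand too. Both of these genes were also listed at 0 in every 3' column, but they were low in CBTi-seq too. There Gm20708 was at 0.78 CPM in control and 0 CPM in knock columns, and Afmid at 4.66 and 5.42 CPM. Only 1.6% of the exon bases of Tk1 overlap exons of other genes. Of the genes with a CBTi-seq mean of 50 CPM or more and a single annotated position, 275 had at least 90% of their span covered by other genes, and 230 of these (83.6%) had no 3' count. Of the other 4916 genes 42 (0.854%) had none. No source used here says how the 3' counting treated overlapping genes, so the 0 of Tk1 is not read as absence of its RNA. None of the other 8 members overlaps an annotated gene.

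Dck encodes deoxycytidine kinase, which phosphorylates deoxycytidine and the purine deoxynucleosides in the cytosol (ENSMUSG00000029366, chromosome 5, 88764996 to 88783281, plus strand). In CBTi-seq the control columns ran from 4.21 over 26.7 to 101.8 CPM and the knock columns from 7.99 over 40.6 to 64.8 CPM. The control columns enclosed all knock columns, and the summed levels of 39.6 and 44.2 CPM gave a log2 ratio of 0.16 (-0.17 to 0.49). The sign was not stable, at -0.67 with columns thinned to 50000 counts (control column 1 is shallower and was left out), 0.42 without control column 8 and -0.01 without control column 3. The 3' level of Dck was 7.64 CPM under the control label, from 54 counts, and 1.53 CPM under the knock label, from 14 counts. The log2 ratio was -2.32 (-3.29 to -1.45), and 7 of the 8 columns labelled knock lay below the lowest column labelled control. With so few counts, 3 of the columns labelled knock held none.

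Tk2 encodes the mitochondrial thymidine kinase (ENSMUSG00000035824, chromosome 8, 104226685 to 104248558, minus strand) and was the lowest of the 9 genes in CBTi-seq. Its control columns ran from 0 over 18.6 to 32.6 CPM and its knock columns from 0 over 12.0 to 25.7 CPM, which overlapped widely. The summed levels of 20.5 and 14.8 CPM gave a log2 ratio of -0.46 with an interval that includes 0 (-1.0 to 0.06). It was -0.89 after the same thinning and -0.27 without control column 9. For Tk2 the 3' direction by label was opposite, with 4.53 CPM from 32 counts and 8.29 CPM from 76 counts (log2 ratio 0.87, 0.26 to 1.52), and 0.58 without knock column 7. The columns there overlapped, and 2 of those labelled knock, at 17.3 and 22.6 CPM, stood above all columns labelled control.

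Dguok encodes deoxyguanosine kinase, which supplies purine deoxynucleotides in mitochondria (ENSMUSG00000014554, chromosome 6, 83480217 to 83506969, minus strand). In CBTi-seq its control columns ran from 10.9 over 33.8 to 61.5 CPM and its knock columns from 12.2 over 26.3 to 55.5 CPM. The groups overlapped, with 8 of 10 knock columns below the control median. Summed, 154 counts gave 39.9 CPM and 90 counts 25.7 CPM, a log2 ratio of -0.64 (-1.03 to -0.25), the lowest of the 9 genes in that assay. With every column weighing the same it was -0.35. The 3' levels of 35.2 and 32.9 CPM gave a ratio of -0.10 with an interval that includes 0 (-0.35 to 0.15), and 0.42 after thinning.

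Samhd1 encodes the hydrolase that cuts deoxynucleoside triphosphates and so opposes the other enzymes (ENSMUSG00000027639, chromosome 2, 157097533 to 157135265, minus strand). In CBTi-seq its control columns ran from 18.7 over 34.4 to 58.7 CPM and its knock columns from 4.43 over 45.5 to 57.7 CPM. Each group had 147 counts in all, which made 38.1 and 41.9 CPM, a log2 ratio of 0.14 with an interval that includes 0 (-0.20 to 0.48). The 3' level was 50.1 CPM under the control label (columns 27.5 to 89.4) and 35.5 CPM under the knock label (columns 19.9 to 45.6). Its log2 ratio was -0.50 (-0.72 to -0.28), with all 8 columns labelled knock below the control median, but thinned to 50000 counts per column it was 0.15.

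For most of these RNAs the CBTi-seq control columns differed more among themselves than the knock columns did. The coefficient of variation beyond counting error of Tk1 was 65.5% over the control columns and 16.8% over the knock columns. For Dut it was 39.1% and 10.2%, and for Dtymk 30.8% and 10.4%. Genes in general differed in the same direction, with a median over the 5243 genes at 50 CPM or more of 34.8% in the control and 20.5% in the knock columns. Without control column 1, chosen after the data were seen, the control values were 52.8% for Tk1, 25.3% for Dut and 34.7% for Dtymk, and the median of all genes was 25.8%. Dctd and Samhd1 stood the other way round, at 35.8% and 61.8% for Dctd and 9.57% and 34.9% for Samhd1, from far fewer counts. Without control column 1 their control values were 42.5% and 19.8%. Tyms lay below the median of all genes in both groups, at 25.5% and 15.6%. By the 3' method the same measure for Tyms was 9.52% and 3.98%, against medians of all genes of 12.5% and 9.89%.

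Tyms and Tk1 were high in the same control columns, while their knock columns showed no such order. Spearman's rho was 0.92 over the 10 control columns, 0.88 without column 1, and 0.01 over the 10 knock columns. The difference between these values was not tested. Dck followed the summed level of 50 S phase genes, with rho of 0.79 over 20 columns, 0.66 in the control and 0.85 in the knock columns. That sum itself had a rho of 0.58 with the column total, which all these values share. Dut had a rho of 0.53 with the S phase sum over 20 columns, while Dtymk had -0.04 with it and 0.39 with the summed G2 and M phase genes. In control columns alone, Dtymk had a rho of 0.70 with the G2 and M phase sum and 0.76 with Rrm2, against 0.35 and 0.27 in knock columns. For Tyms and Rrm2 the rank correlation was -0.31 over all 20 columns, with the groups mixed, and 0.37 and 0.10 within control and knock columns.

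**Figure D3:**
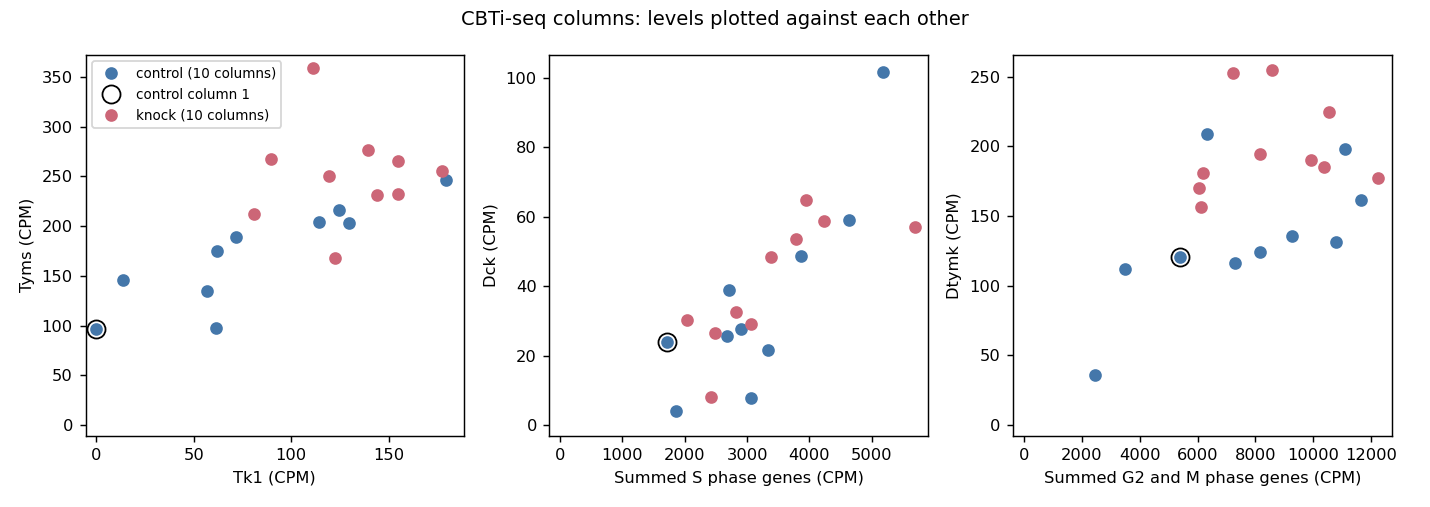
CBTi-seq columns plotted as Tyms against Tk1, Dck against the summed S phase genes, and Dtymk against the summed G2 and M phase genes, all in CPM, for 10 control (blue) and 10 knock (red) columns. Control columns reach lower Tk1 and Tyms levels than knock columns, and the circled control column 1 is the shallowest.

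Among 2792 other genes at 100 CPM or more, those most like each of the 4 abundant members over the 20 CBTi-seq columns had rho between 0.73 and 0.79, the highest of many. For Tyms they were Ccnh, a subunit of the kinase that activates cyclin-dependent kinases (0.78), Creld2 (0.77) and Ndufa11 (0.77). For Tk1 they were the segregase gene Vcp (0.79), Retreg2 (0.77) and Denr (0.75). For Dut they were Nans, Psenen and the chaperonin subunit gene Cct6a. For Dtymk they were Pgp, Tmem14c and Edf1. The 12 genes had log2 ratios between the groups of 0.16 to 0.61, on the same side as the members. How far this shared difference enters each rho was not tested, as rho was taken over both groups together.

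In CBTi-seq, most lists of other genes of deoxynucleotide supply had medians above 0 but smaller than that of the 4 abundant members. Of all genes at 50 CPM or more, 49.1% had a ratio above 0. The exception was ribonucleotide reductase, with a median of -0.14 over the 2 genes at that level. These were Rrm1, at 0.18 (0.01 to 0.35) with columns that overlapped, and Rrm2, at -0.46. Of the folate cycle, which feeds thymidylate synthase, 6 of the 8 genes at 50 CPM or more had a ratio above 0, with a median of 0.19. Mthfd2 (0.40, 0.30 to 0.51) and Shmt2 (0.39, 0.28 to 0.50), mitochondrial enzymes of one-carbon supply, had the largest. Of other nucleoside and nucleotide kinases 10 of 13 were above 0, with a median of 0.12. Of these 10, Cmpk1, Uck1 and Adk were close to 0, at 0.01, 0.01 and 0.02. The adenylate kinases Ak1 (0.83, 0.66 to 0.99) and Ak6 (0.71, 0.54 to 0.89) were the highest, while Ak4 was at -0.70 (-1.0 to -0.41). Of the list of breakdown enzymes 7 of 10 were above 0, with a median of 0.14, led by Itpa, which removes deaminated purine triphosphates (0.58, 0.40 to 0.76). That list also holds the purine salvage genes Aprt (0.10) and Hprt (0.19), so its count and median are not of breakdown enzymes alone. Of de novo pyrimidine synthesis, Umps was at 0.50 (0.29 to 0.70), with 2 of 4 above 0 and a median of 0.06. Of 8 nucleoside and nucleotide transporters only 2 reached 50 CPM, both with a ratio above 0, Slc25a33 at 0.45 (0.22 to 0.68) and Slc29a1 at 0.29 (0.14 to 0.44).

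Cell cycle lists had smaller median ratios than the 4 abundant thymidylate enzymes in CBTi-seq. Of the S phase list 25 of 32 genes at 50 CPM or more had a ratio above 0, with a median of 0.17. For the G2 and M phase list it was 18 of 42, with a median of -0.07, and for all genes at that level 49.1%. The S phase genes with the ratios largest in size were Ccne1 (0.83), Mcm7 (0.72) and Dtl (-0.71). The values of Tyms, Tk1, Dut and Dtymk all lay above that S phase median, a difference between lists that was not tested.

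Under the 3' method the cell cycle genes that reached 50 CPM had ratios as large as those of the members. There 11 of 12 S phase genes at 50 CPM or more were higher under the knock label, with a median of 1.38. So were all 14 G2 and M phase genes, with a median of 1.46, against 57.7% of all genes at that level. The limit is on the mean of both labels. Some genes passed it only through the knock label, such as Uhrf1 (13.3 and 148.4 CPM) and Cenpf (16.0 and 153.2 CPM). Most genes of these lists, of which 48 and 41 had 3' counts, did not reach it. The limit thus shapes these counts and medians. Tyms at 1.25 and Dtymk at 1.38 lay near these medians, and Dut at 0.45 lay below. Rrm1, the large subunit of ribonucleotide reductase, was at 2.05 (1.81 to 2.30), above both medians. Its levels were 23.9 CPM under the control label and 99.0 CPM under the knock label. Rrm2b, which encodes a small subunit of the same enzyme, was lower under the knock label, at -0.76 (-0.89 to -0.63), with all 8 columns labelled knock below all 8 labelled control. Slc25a36, a mitochondrial carrier of pyrimidine nucleotides, was at -1.01 (-1.14 to -0.88), with columns that overlapped. Cda, a cytidine deaminase (1.13, 0.98 to 1.28), and the uridine-cytidine kinase gene Uck2 (1.31, 1.11 to 1.5) were also above 1. Of the folate cycle, only 3 genes reached 50 CPM, with Shmt2 at 0.50, Mthfd2 at 0.19 and Fpgs at -0.52. The kinase genes Nme1 and Nme2 and the purine salvage gene Aprt had no 3' count.

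**Figure D4:**
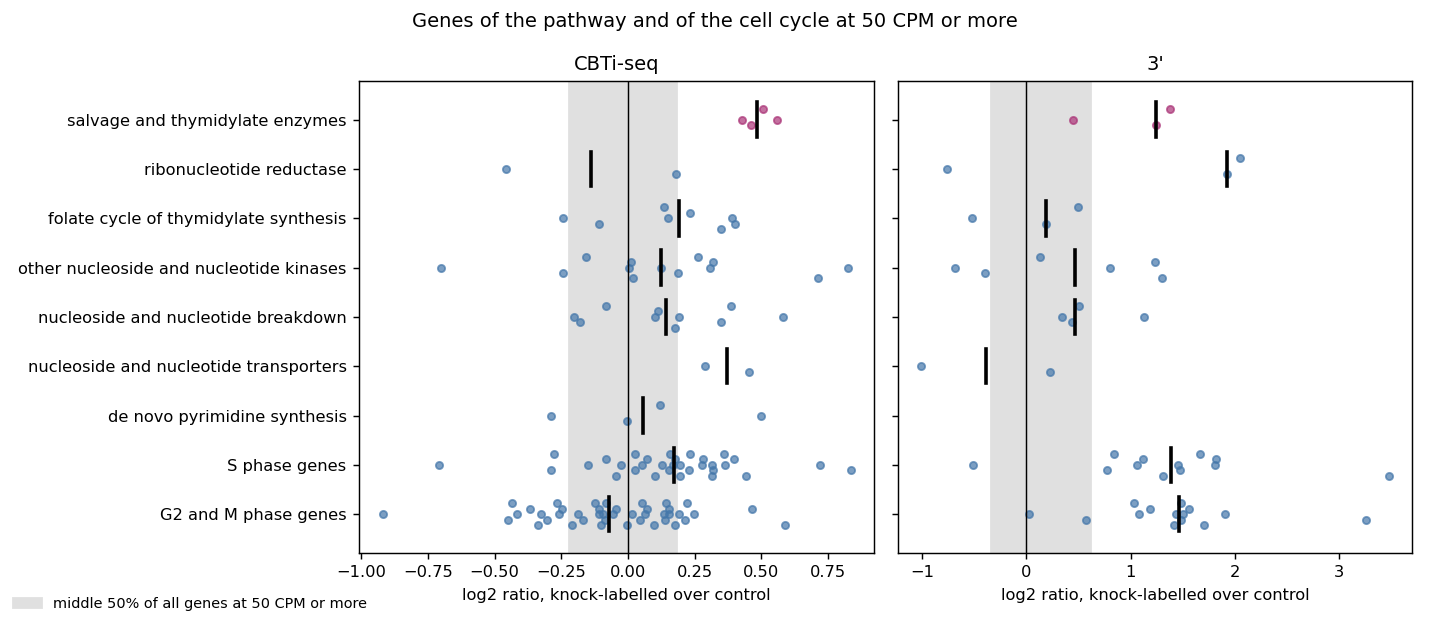
Log2 ratio of knock-labelled to control level (x axis) of each gene at 50 CPM or more in 9 lists, in CBTi-seq (left) and the 3' libraries (right), with black bars at the list medians and grey for the middle 50% of all genes; vertical scatter within a list has no meaning. The thymidylate enzymes lie at 0.43 to 0.56 on the left, where the S phase median is 0.17, and at 0.45 to 1.38 on the right, where it is 1.38.

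Levels in the assays were close for some of the genes and far apart for others. Over all columns Tyms was at 209.5 CPM in CBTi-seq and 189.1 CPM in the 3' tables, Dguok at 33.1 and 33.9 CPM, Samhd1 at 39.9 and 41.8 CPM, and Dctd at 36.9 and 40.1 CPM. For Dguok, Samhd1 and Dctd the interval of the log2 ratio between assays over all columns included 0. By group it did not in control columns for Dctd (-0.38, -0.66 to -0.09) and Samhd1 (-0.40, -0.68 to -0.11), nor in knock columns for Dguok (-0.36, -0.71 to -0.01). Dtymk was higher in CBTi-seq by 0.47 (0.37 to 0.58) and Dut lower, at -0.37 (-0.46 to -0.28). Dck, at 41.8 and 4.19 CPM, was the farthest apart of the members with counts in both, with a log2 ratio of 3.32 (2.94 to 3.72). Tk2 was at 17.8 and 6.65 CPM. Over all columns the Tyms levels were close, but by group they were not alike. Between assays its log2 ratio, CBTi-seq over 3', was 0.71 (0.56 to 0.86) in control columns and -0.03 (-0.14 to 0.09) in knock columns. The same ratio was 1.16 (0.98 to 1.35) and 0.25 (0.11 to 0.38) for Dtymk, and 2.37 (1.92 to 2.85) and 4.85 (4.06 to 5.76) for Dck.

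Per length of the longest annotated transcript, the CBTi-seq level was highest for Dtymk, at 155.5 CPM per kilobase, followed by Dut at 99.0, Tyms at 54.4 and Tk1 at 43.1. The other 5 genes lay between 7.33 (Tk2) and 14.8 CPM per kilobase (Dctd), with Dck at 13.6, Dguok at 13.4 and Samhd1 at 10.2. Among Dctd, Dck and Dguok the column ranges given above overlapped nearly in full. Counts need not scale with transcript length in either assay, so this order depends on the division. Undivided, the mean CBTi-seq levels of the groups were 211.3 CPM for Tyms, 193.1 for Dut, 164.1 for Dtymk and 107.2 for Tk1. For the 3' tables no order per length is given.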

How the data were processed

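For 1 CBTi-seq sample (20717 rows of symbols) and 2 libraries of the 3' method (55402 IDs), the authors deposited raw, whole-number counts for each gene in each column. The submitters' processing notes name FastQC, Picard, STAR 2.7.11b and the builds GRCm38 and GRCh38, without roles. Nothing states which counting tool was run, whether it used strand, or whether 3' counts are reads or molecules; if they are reads, the 3' intervals are too narrow. Per the labels, cDNA was amplified over 20 cycles and columns come from picked cells.

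Symbols were found for 55141 of the 3' IDs. Group sums were scaled to all gene counts (CPM). Levels have exact Poisson and ratios exact conditional (Clopper-Pearson) intervals, at 95%, for counting error only; 3 counts were used as the floor. Genes with a mean of 50 CPM or more entered the background counts, and 2-fold was the limit for calling them apart. With 1 sample per group no test was made. Named genes were the members, Rrm2, up to 3 genes per list with the largest ratios, and the 3 genes most like each abundant member at 100 CPM or more. One gene that this rule names is not reported here. Kinase and salvage genes without a 3' count were named after their values were seen. The members and lists were chosen with earlier results of these data known. Promoters came from RefSeq (GRCm38.p6, all 9 genes matched) and positions from GENCODE, 1-based.

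Alternatives were equal weights per column, TMM (edgeR 4.0.16) or median-of-ratios (DESeq2 1.42.0) factors, totals leaving out mitochondrially encoded and ribosomal protein genes, thinning to 50000 counts (9 of 10 CBTi-seq control columns were deep enough), correction for collisions among 1024 or 4096 UMIs, a level limit of 20 CPM or none, totals over shared genes, and leaving out each column. Calculations used Python 3.11.15 (scipy 1.17.1, pandas 2.3.3, numpy 2.4.6), R 4.3.3 and, for plots, matplotlib 3.10.9. The ratios and intervals were also run on simulated counts. These held counting error only and no variation between columns, so they checked the calculation alone.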

Additional observations from a re-analysis of the deposited data

How the results depend on the processing

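Of 410 recalculated log2 ratios of single members, 405 kept the sign of the reported value. The other 5 were Dck in CBTi-seq after thinning (-0.67) and without control column 3 (-0.01), Dctd in CBTi-seq without control column 9 (0.15), and Samhd1 (0.15) and Dguok (0.42) in the 3' libraries after thinning, where few counts of these genes remain. Thinning left no count of Dck in the 3' library labelled knock, so no ratio was had there. The median of the members in the 3' libraries was 0.54 after thinning, without Dck, against 0.17 with Dck in the main values. These medians are thus not over the same genes. In CBTi-seq, Tyms stayed between 0.42 and 0.58, Tk1 between 0.39 and 0.73, Dut between 0.38 and 0.53 and Dtymk between 0.38 and 0.61 under all 27 alternatives run. The number of members 2-fold apart was 0 in CBTi-seq under each of them, and 2 or 3 in the 3' libraries. TMM factors shifted all 3' ratios by -0.15 and median-of-ratios factors by -0.16, and Tyms then stood at 1.09 and 1.09. Leaving mitochondrially encoded and ribosomal protein genes out of the totals shifted them by -0.13. In CBTi-seq no scaling moved the median of all genes by more than 0.08. All 8 ratios between assays stayed within their intervals with totals over shared genes. Depth limits Tk2, Dck, Dctd, Samhd1 and Dguok most, with 52 to 155 counts per CBTi-seq group. No paired analysis was possible because no label pairs a control column with a knock column.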
